A study of Mus musculus with 2 samples.

Results

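The genes described here are 10 mouse genes of cholesterol efflux and of the liver X receptor (LXR) programme: Abca1, Abcg1, Nr1h3, Pltp, Mylip, Plin2, Cd36, Lpl, Npc1 and Npc2. They were taken by symbol from a list of names, with earlier results of these data known, and are 10 of the 27998 genes in the matrices. Their unique molecular identifier (UMI) counts were summed per cell type label and per library. The cells were CD45+ DAPI− leukocytes sorted from YUMM1.7 tumours, a mouse melanoma line with mutant Braf, and were profiled by droplet single-cell RNA sequencing. The hosts were human APOE knock-in mice, which carry a human allele of the lipid carrier APOE in place of their own. One group carried human APOE2 and the other human APOE4. Every mouse received 100000 YUMM1.7 cells mixed with Matrigel under the flank skin, and tumours were taken on day 19. The sources used here do not state the age, sex or strain of the mice.

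Each genotype is 1 library, made from a pool of 6 mice with 10000 sorted cells from each, so the values below compare 2 libraries. There was no replicate, no p-value was computed, and values per mouse cannot be recovered. The APOE2 library held 4665 annotated cells with a median of 7160 UMIs, and the APOE4 library 5385 cells with a median of 5560. A level is given in CPM, the UMIs of a gene per 1000000 UMIs of the label or class in that library. A ratio is the APOE4 level over the APOE2 level, and the range in brackets after it is its exact 95% interval, which covers counting error only. A gene is called past the fold where this ratio is at least 1.5 in either direction. Of the authors' 26 labels, 24 held at least 20 cells in both libraries, and a ratio is given where a gene had at least 20 UMIs over both. The monocyte/macrophage class joins Monocytes 1 to 3, Mø clusters 1 and 2 and the skin resident Mø. Most labels scored highest on markers of their own name, but the cluster named Monocytic DCs scored highest on cycling genes and next on macrophage genes, the MDSC labels on neutrophil genes and the NKT label on NK genes, and the skin resident Mø scored low on macrophage genes. Between the libraries 8 annotated barcodes were shared. The matrices list mouse genes, so human APOE was not counted as such and the genotype labels could not be checked. Mouse Apoe was listed in the class at 291 and 189.9 CPM (APOE2 and APOE4, the order used for every pair of values).

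Macrophages take up cholesterol with dying cells and lipoproteins. In the lysosome, the soluble protein NPC2 hands free cholesterol to the membrane protein NPC1, which passes it out to the rest of the cell. Oxysterols made from the excess bind LXRα, the product of Nr1h3, and its relative LXRβ. These receptors sit on DNA with RXR and switch on export genes, among them Abca1, which loads cholesterol onto lipid-poor apolipoproteins such as APOE, and Abcg1, which passes it to HDL. Other known LXR targets are Pltp, Mylip and Lpl, while Plin2 coats the droplets in which esterified cholesterol and triglyceride are stored and Cd36 takes up fatty acids and oxidised LDL.

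The genes lie, on mm10 and in GENCODE M21, at Abca1 (chr4:53030787-53159895), Abcg1 (chr17:31057675-31117988), Nr1h3 (chr2:91184061-91202834), Pltp (chr2:164839518-164857711), Mylip (chr13:45389742-45412022), Plin2 (chr4:86648386-86670060), Cd36 (chr5:17781690-17888801), Lpl (chr8:68880491-68907448), Npc1 (chr18:12189692-12236400) and Npc2 (chr12:84754562-84773152). All are annotated as protein coding, and 3′ chemistry reads their transcripts near the end. RefSeq promoter windows, the 250 bases before the annotated start on GRCm38.p6, were found for 7 of the 10.

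In the monocyte/macrophage class, with 1734 cells in the APOE2 library and 1557 in the APOE4 library, Abca1, Pltp, Cd36 and Lpl were lower in APOE4 past the fold and none of the 10 was higher past it. All 10 had enough UMIs to be measured in the class. Among the 10415 genes with at least 50 UMIs there, 12.6% were past the fold lower and 7.24% higher. The median log2 ratio of the members was −0.44, and that of all genes tested was −0.06. Npc2, at 1485 CPM in the APOE2 library and 2205 CPM in the APOE4 library, was just inside the fold on the other side, with a ratio of 1.48 (1.46 to 1.51). The class does not hold the same mix of labels in the libraries. Mø labels made up 53.4% of its cells in APOE2 and 26.6% in APOE4, and Mø cluster 2 alone 23.0% and 10.3%. With the APOE4 labels weighted to the APOE2 mix, the median of the members was −0.05, and Abca1 and Lpl stayed past the fold lower, while Nr1h3 passed it higher. Npc2 and Nr1h3 were higher in the class under either weighting. The labels are therefore given one by one below.

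**Figure D1:**
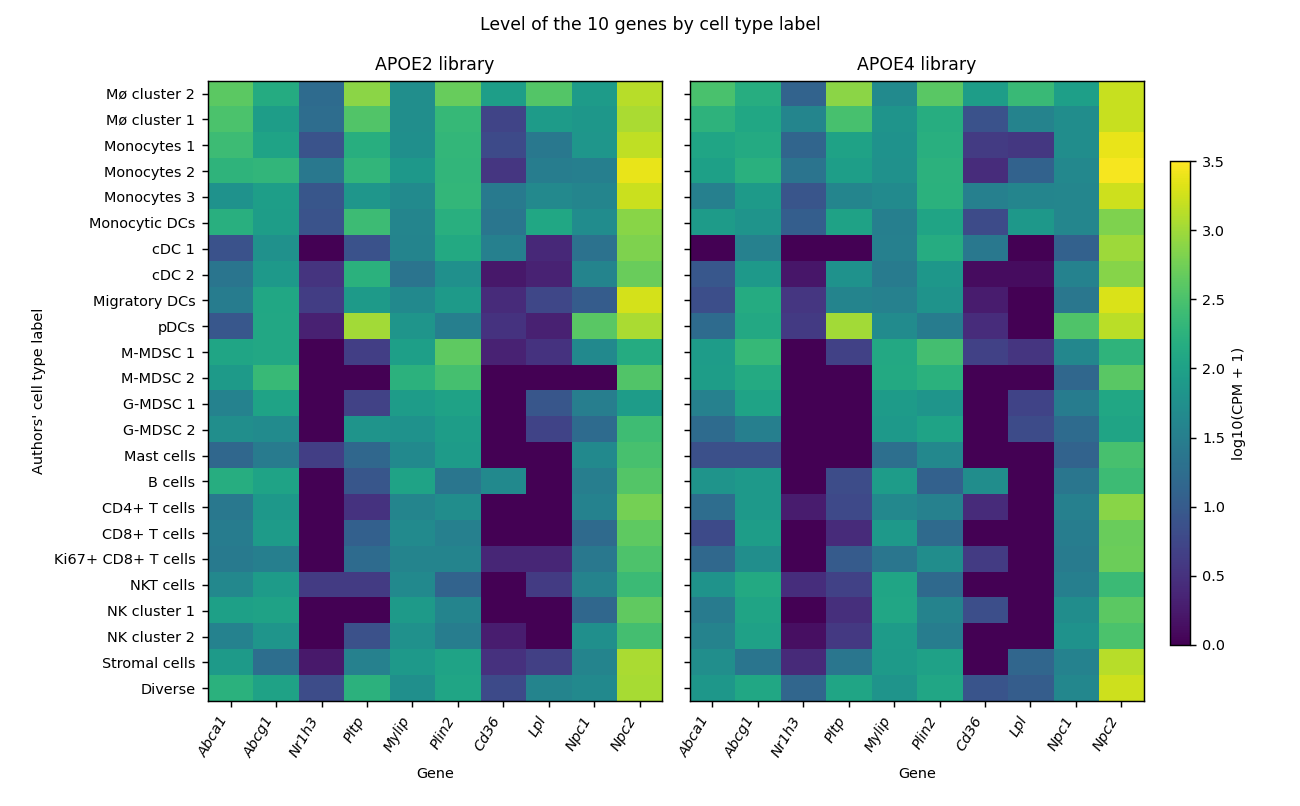
Levels of the 10 genes in each label, by library, in CPM shown as log10(CPM + 1) by colour (rows are the 24 labels with at least 20 cells in each library, columns are genes). Pltp and Npc1 are highest in pDCs in both libraries, and Cd36 and Lpl are highest in Mø cluster 2. Npc2 is bright in most labels, less so in M-MDSC 1 and G-MDSC 1.

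Abca1, the exporter that starts HDL formation, was lower in the APOE4 library in the 5 monocyte and Mø labels with a ratio. The skin resident Mø, with 8 cells in APOE4, was too small for one. In the class as a whole it was at 290.4 CPM in the APOE2 library and 139 CPM in the APOE4 library, a ratio of 0.478 (0.452 to 0.505). Mø cluster 2 held the highest level in each library, 417 and 307 CPM, a ratio of 0.736 (0.665 to 0.814). Mø cluster 1 followed with 324 and 183 CPM, a ratio of 0.567 (0.511 to 0.628). The order of levels from Mø cluster 2 through Mø cluster 1, Monocytes 1 and Monocytes 2 to Monocytes 3 was the same in both libraries. Monocytes 1 was at 253 and 113 CPM with a ratio of 0.448 (0.390 to 0.512). Monocytes 2 was at 186 and 96.0 CPM with a ratio of 0.515. Monocytes 3 was at 60.6 and 32.1 CPM with a ratio of 0.530 (0.348 to 0.804). All 5 intervals stayed below 1. The cycling cluster named Monocytic DCs was lower too, at 159.6 and 82.9 CPM, as was the mixed label Diverse at 169 and 69.9 CPM.

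The share of cells with an Abca1 UMI was 90.2% and 80.7% in Mø cluster 2 and 69.1% and 41.1% in Monocytes 1. After every cell was thinned to 1500 UMIs these shares were 49.5% and 38.7% and 29.5% and 15.3%, against 0.699% and 0% in cDC 1, a dendritic cell that held 13 and 0 UMIs of Abca1 in all. The thinned shares were thus lower in the APOE4 library as well. Within the monocyte labels the marker genes differed too. In Monocytes 1 the 7 macrophage markers summed to 4259 and 2459 CPM and the 5 monocyte markers to 3635 and 9821 CPM. In Monocytes 2 the same sums were 6077 and 2849 CPM and 7244 and 12936 CPM. In Mø cluster 1 the macrophage sum was 15499 and 13658 CPM and in Mø cluster 2 11293 and 9488 CPM. Their part in the Abca1 ratios was not tested.

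Among the MDSC labels M-MDSC 1 held more Abca1 than Monocytes 3, at 113 and 85.2 CPM, with a ratio of 0.751 whose interval of 0.544 to 1.03 includes 1. M-MDSC 2 was at 80.1 and 89.0 CPM on 5 and 32 UMIs, slightly higher in APOE4. Over the 20 labels where Abca1 was measured it was lower in APOE4 in 16 and higher in 4, with 12 past the fold lower and 1, pDCs at 7 and 27 UMIs, past it higher. Over all genes, 9.66% of the 168415 pairs of gene and label with as many UMIs were past the fold lower and 11.1% higher. In cDC 2, Abca1 was at 21.8 and 7.79 CPM while the macrophage gene C1qa was at 185 and 47.7 CPM. Migratory DCs gave 28.6 and 5.90 CPM of Abca1 beside 153 and 52.3 CPM of C1qa. In these DC labels both genes were lower in APOE4, and the part of free or carried-over macrophage RNA in the Abca1 difference was not tested. B cells reached 150.5 and 64.4 CPM on 20 and 23 UMIs, with 0.159 and 0.575 Abca1 UMIs per UMI of the myeloid gene Lyz2. In Mø cluster 1 the same quotient was 0.0411 and 0.0327. Other labels were above Mø cluster 1 as well, such as NKT cells at 0.4 and 1.375 and stromal cells at 0.158 and 0.197. The part of free myeloid RNA in the B cell level was not tested.

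**Figure D2:**
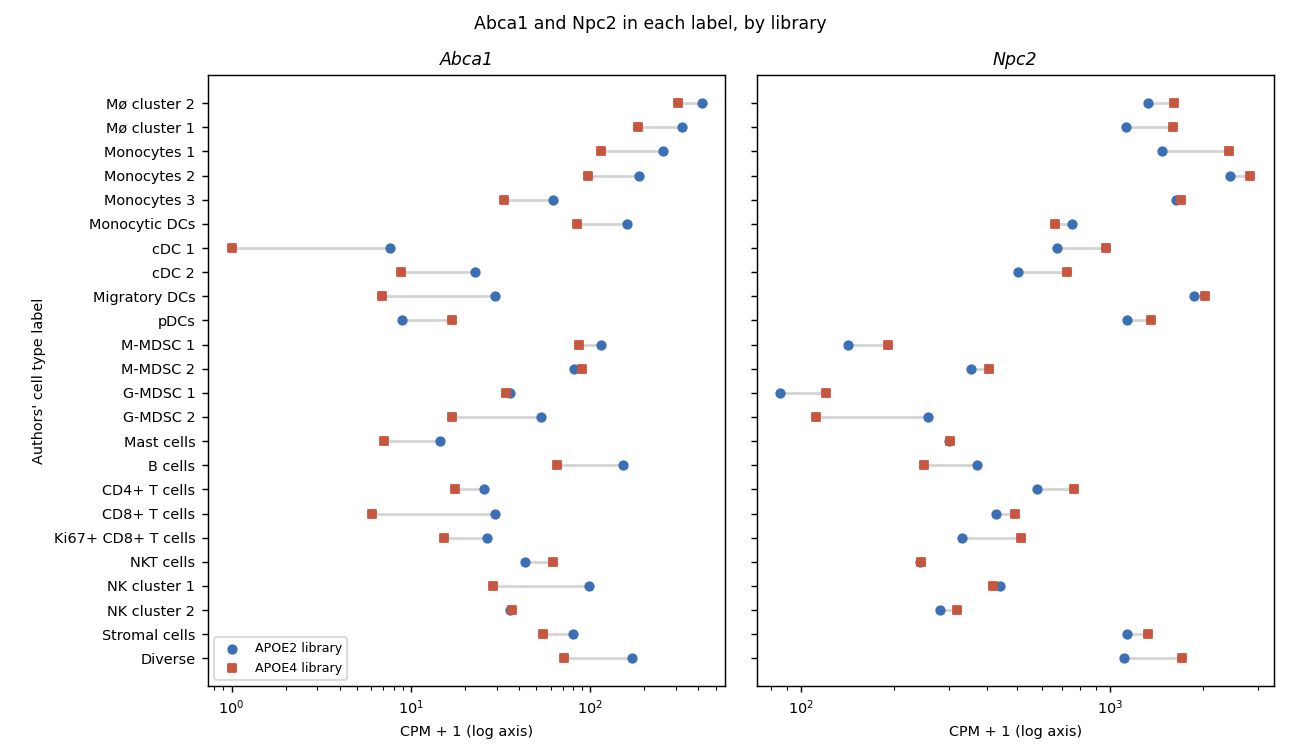
Abca1 and Npc2 levels in each label (CPM + 1, log axis), one point per library joined by a grey line. For Abca1 the APOE4 squares lie left of the APOE2 circles in the monocyte and Mø labels, and for Npc2 they lie right of them in the same labels.

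Promoter windows are shown for the members that were lower in the class and have one, Abca1, Pltp, Plin2 and Cd36, to let the reader see the LXR and PPAR search in the sequence. The motifs were the LXR/RXR element DR4 (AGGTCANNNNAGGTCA), the PPAR/RXR element DR1 (AGGTCANAGGTCA), each with up to 2 mismatches in the 12 letters of its half-sites, and the PU.1 core GAGGAA without mismatch, on both strands. DR4 was found in none of the 7 members with a window and in 2.57% of all 32851 windows. With up to 3 mismatches, a limit added after the windows were read, Abca1 had a match from 67 to 52 bases before the start, as had 18.5% of all windows. DR1 was found in Plin2 and Cd36 and in 3.24% of all windows, and the PU.1 core in Pltp and in 23.3%. No window printed held more than 1 of these matches, so none overlapped another. The windows run 5′ to 3′ on the gene's strand, minus for all 4, with the match in capitals, and come from RefSeq on GRCm38.p6 at chr4:53159896-53160145, chr2:164857709-164857958, chr4:86670060-86670309 and chr5:17835897-17836146. The DR4 and DR1 matches are on the opposite strand and so read as their reverse complement.
Abca1: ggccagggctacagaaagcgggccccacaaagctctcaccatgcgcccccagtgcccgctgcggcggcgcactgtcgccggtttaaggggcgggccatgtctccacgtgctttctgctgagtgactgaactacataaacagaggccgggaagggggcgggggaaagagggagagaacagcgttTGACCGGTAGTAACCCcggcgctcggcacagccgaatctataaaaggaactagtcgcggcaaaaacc
Pltp: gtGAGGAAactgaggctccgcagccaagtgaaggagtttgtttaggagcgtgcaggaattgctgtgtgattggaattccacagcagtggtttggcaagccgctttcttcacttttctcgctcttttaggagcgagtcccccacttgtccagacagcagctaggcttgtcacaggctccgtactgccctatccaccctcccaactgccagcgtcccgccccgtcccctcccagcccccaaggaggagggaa
Plin2: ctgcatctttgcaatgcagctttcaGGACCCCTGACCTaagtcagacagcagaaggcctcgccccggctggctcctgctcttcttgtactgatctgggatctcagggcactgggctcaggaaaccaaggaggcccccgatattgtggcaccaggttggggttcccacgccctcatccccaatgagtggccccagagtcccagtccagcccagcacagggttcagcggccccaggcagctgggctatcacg
Cd36: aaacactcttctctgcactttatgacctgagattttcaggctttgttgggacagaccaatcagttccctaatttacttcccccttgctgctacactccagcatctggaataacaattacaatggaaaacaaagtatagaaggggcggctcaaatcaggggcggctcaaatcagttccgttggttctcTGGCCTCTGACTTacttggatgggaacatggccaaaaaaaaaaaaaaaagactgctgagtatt
The Abca1 window lies just upstream of the annotated gene, while the Cd36 window lies within the annotated span of Cd36, in none of its exons. These are matches of letters and no binding was measured.

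Abcg1, the exporter that loads mature HDL, did not follow Abca1. Its class level was 116 CPM in the APOE2 library and 138 CPM in the APOE4 library, a ratio of 1.19 (1.12 to 1.27). Mø cluster 1 was at 88.3 and 121 CPM with a ratio of 1.37 (1.18 to 1.58). Monocytes 1 was at 106 and 138 CPM with a ratio of 1.30 (1.11 to 1.51). Abca1 was lower in both of these labels. Mø cluster 2 was nearly level at 143 and 149 CPM, and its interval of 0.893 to 1.21 includes 1. Monocytes 2, in contrast, had less in APOE4, 201 and 168 CPM, a ratio of 0.834 (0.728 to 0.957). Over 22 labels Abcg1 was higher in 15 and lower in 7, and 4 and 2 of these were past the fold. Of all pairs of gene and label, 52.2% were higher by any amount, 11.1% past the fold higher and 9.66% past it lower.

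Unlike Abca1, Abcg1 was present at similar levels well outside the macrophages. It was at 126 and 130.1 CPM in pDCs and 121 and 139 CPM in migratory DCs, which stood close to Mø cluster 2. M-MDSC 1 held 126 and 218 CPM, a ratio of 1.73 (1.36 to 2.22). M-MDSC 2, at 224 and 136 CPM on 14 and 49 UMIs, was lower instead, a ratio of 0.607 with an interval of 0.330 to 1.19. Lymphocyte labels held it too, for example NK cluster 2 at 66.1 and 99.6 CPM. The lowest level among the labels with a ratio was in stromal cells, at 17.5 and 22.2 CPM.

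Setting the exporters against each other within a label cancels the label's total. In the class there were 0.398 in the APOE2 library and 0.994 in the APOE4 library Abcg1 UMIs per Abca1 UMI, a ratio of 2.50 (2.29 to 2.72). In Monocytes 1 the quotient was 0.421 in the APOE2 library and 1.22 in the APOE4 library, and in Mø cluster 1 it was 0.273 in the APOE2 library and 0.659 in the APOE4 library. It was higher in the APOE4 library in 19 of 21 labels, with a median ratio of 1.74 and a range from 0.512 to 6.09. The exceptions were pDCs, with 7 and 27 UMIs of Abca1, and M-MDSC 2, with 5 and 32 UMIs. Several of the 19 rest on as few, such as G-MDSC 1 on 9 and 8 UMIs and CD8+ T cells, the highest ratio, on 13 and 9 UMIs. Among the 19, the interval of the ratio included 1 in G-MDSC 1, CD4+ T cells, NKT cells, NK cluster 2 and B cells. The quotient combines the Abca1 and Abcg1 ratios given above, and no share over all pairs of genes was computed. The labels share their library and so are not replicates.

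**Figure D3:**
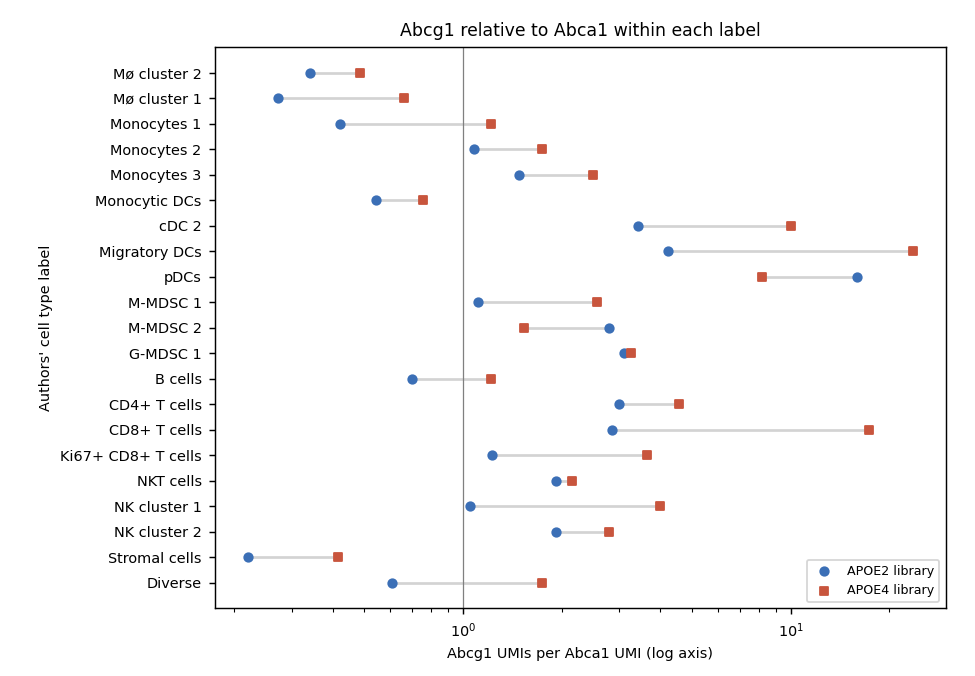
Abcg1 UMIs per Abca1 UMI in each label (log axis), APOE2 circles and APOE4 squares. The APOE4 square lies to the right in 19 of the 21 labels, all but pDCs and M-MDSC 2.

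Nr1h3, which encodes LXRα, was detected at low levels and mainly in monocytes and macrophages, which held 79.0% of its annotated UMIs in APOE2 and 75.1% in APOE4. The class level was 14.7 CPM in the APOE2 library and 20.7 CPM in the APOE4 library, a ratio of 1.42 (1.18 to 1.70). Among the labels of the class with a ratio, Mø cluster 1 had the highest, 2.25 (1.67 to 3.02), at 16.9 and 38.0 CPM. The share of its cells with a UMI was 14.1% and 21.6%, and 2.30% and 5.71% after thinning, while Nr1h3 had no UMI in any of the MDSC labels. Monocytes 1 was at 6.80 and 13.0 CPM on 21 and 34 UMIs, a ratio of 1.92 (1.08 to 3.48). Monocytes 2 at 24.0 and 21.4 CPM and Mø cluster 2 at 15.7 and 11.8 CPM were lower in APOE4, with intervals that include 1. In Mø cluster 1 and Monocytes 1, Abcg1 was also higher and Abca1 lower. In the cycling cluster Nr1h3 was higher too, at 6.77 and 10.3 CPM with an interval of 0.852 to 2.68, but Abcg1 was lower there, with a ratio of 0.724.

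Pltp encodes the phospholipid transfer protein, which remodels HDL. Its highest level was in pDCs, the interferon-producing plasmacytoid dendritic cells, with 1028 CPM in the APOE2 library and 1024 CPM in the APOE4 library, a ratio of 0.995 (0.918 to 1.08). The share of pDCs with a UMI was 91.9% and 92.7%, and 65.8% and 71.9% after thinning. C1qa in pDCs was at 7.86 and 58.3 CPM against 3352 and 2842 CPM in Mø cluster 2. There were 4.47 and 3.33 Pltp UMIs per Lyz2 UMI in pDCs and 0.0616 and 0.0689 in Mø cluster 2. The part of free macrophage RNA in the pDC level was not tested. Mø cluster 2 came next, at 785 and 786 CPM, also level between libraries, with a ratio of 1.00 (0.938 to 1.07).

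Elsewhere Pltp was lower in the APOE4 library. Mø cluster 1 was at 357 and 303 CPM, a ratio of 0.849 (0.781 to 0.923). Monocytes 2 was at 200.3 and 91.9 CPM, a ratio of 0.459 (0.393 to 0.536). Monocytes 1 and Monocytes 3 had ratios of 0.664 and 0.568. Pltp and C1qa were both lower in these monocyte labels, where C1qa was at 978 and 472 CPM in Monocytes 1 and 1919 and 762 CPM in Monocytes 2. In cDC 2, Pltp was at 168 and 60.4 CPM, a ratio of 0.359 (0.304 to 0.422), beside a C1qa ratio of 0.258. In migratory DCs the ratios were 0.470 for Pltp and 0.342 for C1qa. Pltp was past the fold lower in 8 of the 12 labels with a ratio and past it higher in none. Of all pairs of gene and label, 9.66% were past the fold lower and 11.1% higher. The part of macrophage RNA in the DC labels was not tested. The class ratio was 0.573, from 397 and 227 CPM. Weighted to the APOE2 mix of labels its log2 ratio moved from −0.80 to −0.16. The pDCs, 111 cells in APOE2 and 205 in APOE4, held 9.31% of all annotated Pltp UMIs in APOE2 (916 of 9839) and 32.0% in APOE4 (1739 of 5442).

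**Figure D4:**
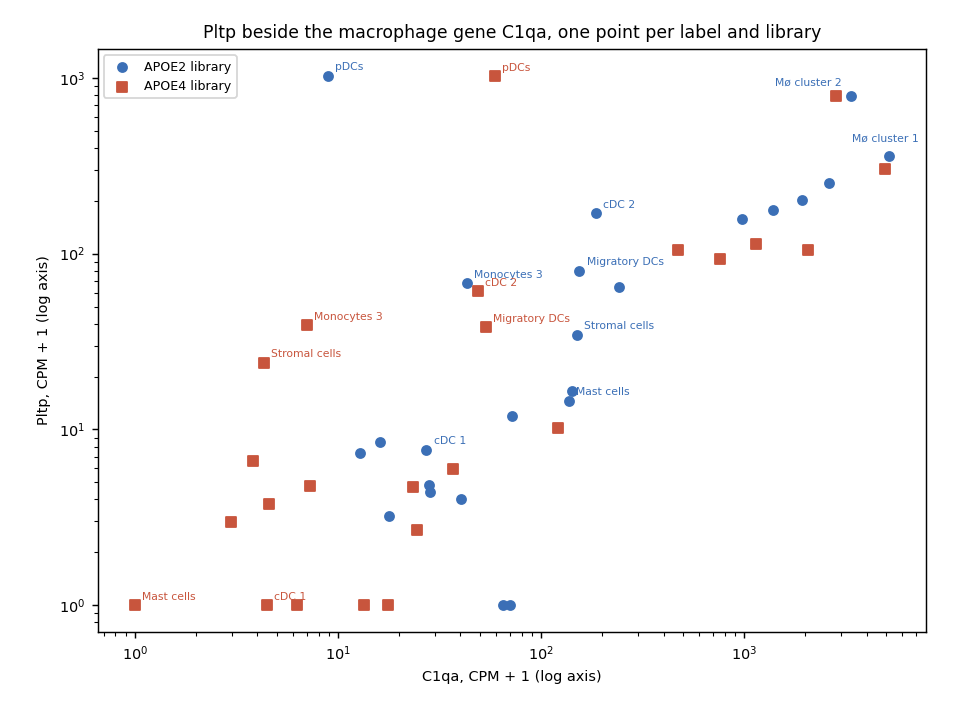
Pltp against the macrophage gene C1qa, one point per label and library (CPM + 1, both axes log). Most labels lie along a rising band, and pDCs stand above it in both libraries, at 1028 and 1024 CPM of Pltp.

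Mylip encodes a ubiquitin ligase of the cholesterol uptake pathway. It was measured in 23 labels, higher in APOE4 in 12 and lower in 11, while 52.2% of all pairs of gene and label were higher. In the class it was at 53.4 CPM in the APOE2 library and 55.7 CPM in the APOE4 library, and the interval of its ratio, 0.943 to 1.16, includes 1. The T class (CD4+, CD8+ and NKT labels) stood at 41.5 and 69.9 CPM, a ratio of 1.68 (1.29 to 2.23). The NKT label, on 15 and 62 UMIs, was at 45.2 and 115 CPM. CD8+ T cells were at 46.2 and 74.9 CPM and the NK class at 60.6 and 88.2 CPM. In the T class 5.9% of genes were past the fold higher and 5.96% lower, and of 6 members tested Mylip was higher and Abca1 and Plin2 lower. The lower calls depend on the processing. In thinned cells neither was past the fold, with log2 ratios of −0.29 for Abca1 and −0.50 for Plin2, Abca1 alone was within it at the APOE2 label mix and in cells under 5% mitochondrial UMIs, and Plin2 alone with equal label weight.

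Lpl, lipoprotein lipase, frees fatty acids from triglyceride-rich lipoproteins. It had the lowest class ratio of the 10, at 184 CPM in the APOE2 library and 54.3 CPM in the APOE4 library, a ratio of 0.296 (0.271 to 0.322). The highest level was in the skin resident Mø, 846 and 487 CPM, a label of 47 and 8 cells that is too small in APOE4 for a ratio. Without it the class log2 ratio was −1.57 in place of −1.76, and at the APOE2 mix of labels it was −0.80. Mø cluster 2 held 362 and 231 CPM, a ratio of 0.638 (0.568 to 0.716), and the share of its cells with a UMI was 52.0% and 36.0% (26.7% and 23.2% thinned). Mø cluster 1 held 82.1 and 35.3 CPM, a ratio of 0.430 (0.339 to 0.539). Both macrophage labels therefore had less Lpl in the APOE4 library. Monocytes 1 differed most, with 76 and 7 UMIs, or 24.6 and 2.68 CPM. Monocytes 3 was close to level at 43.3 and 38.1 CPM, with an interval of 0.571 to 1.37. Lpl was lower in 7 of 8 labels with a ratio, 6 of them past the fold, as were 9.66% of all pairs of gene and label. The exception was the stromal label, on 5 and 16 UMIs. No Lpl UMI was seen in the labels CD4+ T cells, CD8+ T cells, NK cluster 1, NK cluster 2 and B cells. The NKT and Ki67+ CD8+ T labels held some in the APOE2 library only.

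Cd36, the scavenger receptor for fatty acids and oxidised LDL, was concentrated in 1 label. Mø cluster 2 was at 89.4 CPM in the APOE2 library and 89.0 CPM in the APOE4 library, a ratio of 0.995 (0.815 to 1.21). Mø cluster 1 was at only 4.27 and 6.52 CPM. The class values of 27.5 and 17.9 CPM go with the label mix, and at the APOE2 mix the log2 ratio was 0.026 in place of −0.62. cDC 1 at 32.3 and 24.1 CPM and Monocytes 3 at 27.1 and 32.9 CPM came next among myeloid labels. B cells reached 45.1 and 50.4 CPM, but on 6 and 18 UMIs in 5.56% and 6.45% of cells. The cycling cluster was the label where Cd36 differed most, at 22.6 and 5.34 CPM, a ratio of 0.236 (0.121 to 0.422). Lyz2 in that cluster was also lower, at 4221 and 1944 CPM, and S100a8, a neutrophil gene, higher, at 17.3 and 298 CPM. Their part in these ratios was not tested.

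Plin2, the coat of lipid droplets, was highest in Mø cluster 2 in both libraries, at 489 CPM in the APOE2 library and 396 CPM in the APOE4 library, a ratio of 0.809 (0.739 to 0.885). Mø cluster 1 was at 220.4 and 153 CPM, a ratio of 0.693 (0.617 to 0.777). Monocytes 1, 2 and 3 lay close together, from 200.3 to 207 CPM in APOE2 and from 159.9 to 175 CPM in APOE4. M-MDSC 1, a label with neutrophil markers, was at 429.6 and 282 CPM, a ratio of 0.656 (0.554 to 0.776). cDC 2 went the other way, at 56.5 and 71.1 CPM, a ratio of 1.26 (1.04 to 1.52). Over 22 labels Plin2 was lower in 17 and higher in 5, with 6 past the fold lower and none past it higher. Of all pairs of gene and label, 9.66% were past the fold lower and 11.1% higher.

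**Figure D5:**
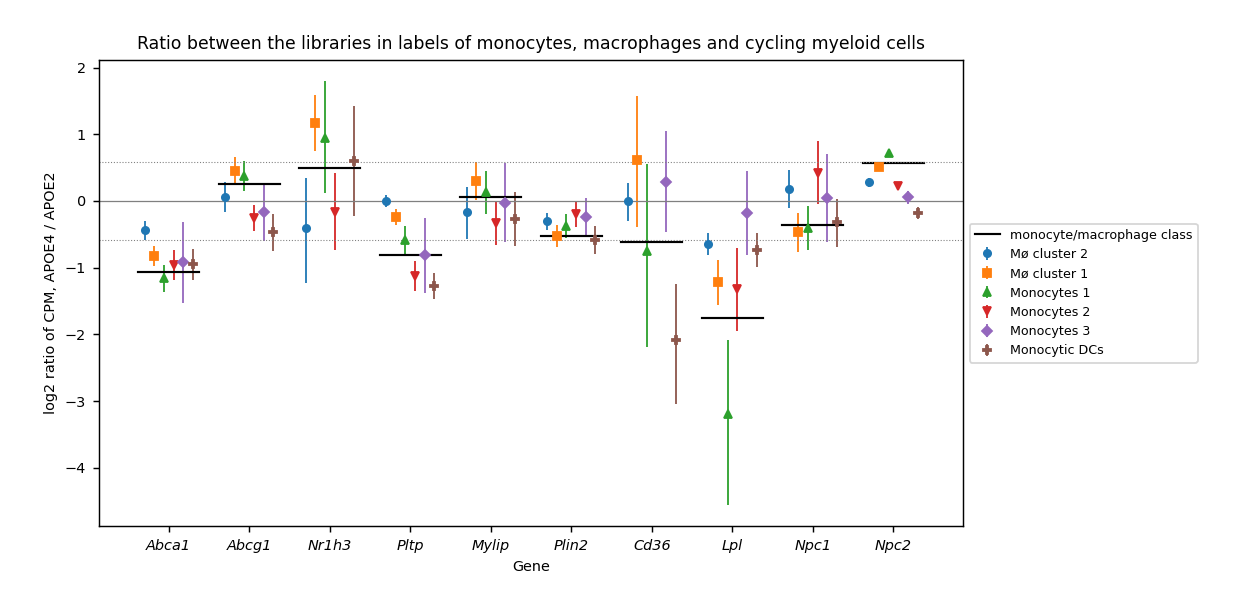
The log2 ratio of CPM (APOE4 over APOE2) of each gene in the monocyte and Mø labels and the cycling cluster, with exact 95% intervals that cover counting error only. Black bars mark the class, the grey line equal levels and the dotted lines the fold of 1.5. Abca1, Plin2 and Lpl lie below the grey line in every label drawn, and Npc2 above it in all but the cycling cluster.

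Counted by label, with genes of at least 50 UMIs, the members past the fold were mostly lower in the monocyte and Mø labels. In Monocytes 1, Nr1h3 and Npc2 of 9 members were past it higher, where 8.54% of genes were, and Abca1, Pltp and Lpl lower, where 6.84% were. In Monocytes 2 the same 3 genes were lower, where 6.95% of genes were, and no member was higher, where 5.32% were. Monocytes 3 had Abca1 and Pltp lower (3.47% of genes) and no member higher (6.41%). Mø cluster 1 had Nr1h3 higher (6.83%) and Abca1 and Lpl lower (6.86%). In Mø cluster 2 all 10 were tested, and Lpl alone was lower (5.46%), with none higher (5.3%). The cycling cluster had Abca1, Pltp, Cd36 and Lpl lower (7.54%), the same 4 as in the class, and Nr1h3 higher (6.53%). Among DC labels cDC 2 and migratory DCs had Abca1 and Pltp lower (5.88% and 5.5%) and no member higher (8.61% and 7.18%). In cDC 1, Abcg1 and Npc1 of 6 members were lower (4.97%) and none was higher (5.89%). In pDCs none of 6 was past the fold, where 7.54% of genes were higher and 3.72% lower. M-MDSC 1 had Abcg1 higher (13.5%) and Plin2 lower (6.46%), whereas M-MDSC 2 had both lower (12.4%) and none of 4 higher (25.5%). Lpl, then, was past the fold in both Mø labels and Abca1 in all 3 monocyte labels.

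Npc2, the soluble carrier of cholesterol in the lysosome, was the most abundant of the 10 and was higher in APOE4 in 20 of 24 labels, while 52.2% of all pairs of gene and label were. It was past the fold higher in 3 of the 24, Monocytes 1, Diverse and Ki67+ CD8+ T cells, and lower in 1, G-MDSC 2, against the 11.1% and 9.66% of all pairs given above. Monocytes 1 was at 1466 CPM in the APOE2 library and 2422 CPM in the APOE4 library, a ratio of 1.65 (1.59 to 1.72). Mø cluster 1 was at 1122 and 1602 CPM, a ratio of 1.43 (1.37 to 1.48). Mø cluster 2 was at 1323 and 1605 CPM and Monocytes 2, the highest of the labels with a ratio, at 2446 and 2845 CPM. Their ratios of 1.21 and 1.16 were smaller, with intervals above 1. Monocytes 3, at 1637 and 1700.5 CPM, was close to level.

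The same direction was seen away from macrophages. cDC 1 was at 672 and 969 CPM and cDC 2 at 503 and 725 CPM, with ratios of 1.44 and 1.44. In these labels C1qa was lower in APOE4, with ratios of 0.131 and 0.258, so the 2 genes differed in opposite directions. CD4+ T cells were at 581 and 765 CPM, a ratio of 1.32 (1.18 to 1.47). Labels that were lower were the cycling cluster at 751 and 664 CPM, G-MDSC 2 at 256 and 111 CPM, B cells at 369 and 249 CPM and NK cluster 1 at 439 and 418 CPM. In G-MDSC 2 the macrophage markers were at 986 and 10.6 CPM in sum, and their part was not tested.

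Npc1, the membrane partner of Npc2, had its highest level in pDCs. They held 401 CPM in the APOE2 library and 341 CPM in the APOE4 library, a ratio of 0.850 (0.744 to 0.973). Their share of all annotated Npc1 UMIs was 16.0% and 28.8%, while the monocyte/macrophage class held 48.7% and 31.8%. A UMI was found in 92.8% and 87.3% of pDCs, and in 43.2% and 44.3% after thinning. The next highest label, Mø cluster 2, was at 81.5 and 92.7 CPM, with an interval of 0.932 to 1.38. Mø cluster 1 was at 70.6 and 51.0 CPM, a ratio of 0.723 (0.589 to 0.883), and Monocytes 1 had a ratio of 0.755 (0.603 to 0.944). Migratory DCs were low at 9.53 and 23.6 CPM on 17 and 28 UMIs. Within the class, Npc1 was therefore lower in the labels with the highest Npc2 ratios, Monocytes 1 and Mø cluster 1. The number of Npc2 UMIs per Npc1 UMI was higher in APOE4 in 16 of 19 labels, with a median ratio of 1.35. Several of the 16 lay close to 1, such as Monocytes 3 at 1.01 (0.656 to 1.56) and NK cluster 2 at 1.04 (0.753 to 1.44). The quotient was lower in Monocytes 2, CD8+ T cells and migratory DCs, the last with a ratio of 0.438 (0.239 to 0.802). In the sum of the DC labels the ratio was 0.812 (0.725 to 0.910). No share over all pairs of genes was computed. In Mø cluster 1 the quotient was 15.9 in the APOE2 library and 31.4 in the APOE4 library.

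When the labels cDC 1, cDC 2, Migratory DCs and pDCs were summed as dendritic cells, the sum and its labels disagreed. Pltp was at 201 and 276 CPM in the class, a ratio of 1.37, although none of these labels had a ratio above 1. Npc1 was at 63.8 and 102 CPM, a ratio of 1.59, although in pDCs it was lower. At the APOE2 mix of DC labels the log2 ratios were −0.54 for Pltp and −0.15 for Npc1. pDCs numbered 111 of the 852 dendritic cells in APOE2 and 205 of 731 in APOE4. Of the 8 members tested in the class Npc1 was past the fold higher, where 8.84% of genes were, and Abca1 and Cd36 lower, where 5.38% were. In the class of MDSC labels Plin2 alone of 6 members tested was past the fold lower, where 7.96% of genes were, and none was higher, where 10.7% were. Its log2 ratio of −0.59 lay close to the fold, and was within it with equal label weight (−0.43), at the APOE2 label mix (−0.56) and in cells under 5% mitochondrial UMIs (−0.58). No member was past the fold among 6 tested in the NK class, where 8.29% of genes were higher and 4.12% lower.

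Other genes of the pathway were read from lists fixed by name, in the monocyte/macrophage class. In that class 7.24% of all genes were past the fold higher and 12.6% lower. None of 9 receptors and partners passed the fold, and their median log2 ratio was 0.21. The coactivator gene Ncoa1 was at 41.2 and 59.0 CPM and Ppard at 16.4 and 21.8 CPM, while the RXR subunit Rxra was at 22.4 and 14.9 CPM, a ratio of 0.668. Among 4 measured efflux acceptors and transporters 2 were lower past the fold, the mouse Apoe sequence and the transporter Abca9, at 36.7 and 21.1 CPM. The hosts carry a human allele in place of mouse Apoe, and the source of the Apoe UMIs was not tested. Of the 5 monocyte and Mø labels, Apoe was past the fold lower in Monocytes 2 alone and Abca9 in Monocytes 1 alone. Scarb1 and Abca7 were at 36.5 and 42.0 CPM and 29.4 and 34.9 CPM. The list of other LXR targets was split, with 1 of 8 genes past the fold higher, 2 lower and a median of −0.15. The transglutaminase Tgm2 was higher, at 178 and 303 CPM, a ratio of 1.70, but was past the fold in none of the 5 monocyte and Mø labels tested, with ratios from 1.09 in Monocytes 3 to 1.49 in Monocytes 2. Mertk, a receptor for dying cells, was lower at 53.2 and 28.7 CPM, and the desaturase Scd2 at 78.2 and 46.5 CPM, while the phosphodiesterase Smpdl3a was at 181 and 197 CPM.

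Of the uptake genes, none was past the fold lower in the class, and Olr1, a receptor for oxidised LDL, was past it higher, at 6.49 and 12.2 CPM. Lrp1, an APOE receptor, was at 334 and 236 CPM in the class and past the fold lower in Mø cluster 1 and Monocytes 1, with ratios of 0.629 and 0.576. Lmf1, which matures lipases, was at 16.0 and 15.7 CPM in the class. Lysosomal sterol genes, 9 in number, had a median of −0.03, with the sterol carrier Stard3 higher at 52.3 and 82.4 CPM and Gramd1b lower at 17.7 and 10.9 CPM. Scarb2 was at 88.8 and 110.4 CPM and Tmem97 at 14.5 and 11.3 CPM. Among 12 genes of esterification and droplets 1 was past the fold higher and 3 lower, where 7.24% and 12.6% of all genes were. Their median was −0.24. Hilpda, which restrains triglyceride breakdown and is induced in hypoxia, was lower at 298 and 103 CPM, a ratio of 0.345. The fatty acid carrier Fabp5 was at 404 and 201 CPM, and the droplet coat Plin3 was the third lower gene, at 58.9 and 37.4 CPM, though within the fold in each of these 5 labels, with ratios from 0.729 in Mø cluster 1 to 1.02 in Monocytes 1. Dgat2, which makes triglyceride, was higher at 15.8 and 35.7 CPM, and the lipase Lipe was at 20.2 and 29.2 CPM.

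The SREBP2 side answers low cholesterol by raising synthesis and uptake. Its 8 measured genes had a median of 0.24 in the class, with Insig1 higher at 29.9 and 47.4 CPM and none lower. Sqle was at 4.95 and 6.94 CPM, Insig2 at 28.1 and 26.7 CPM and Scap at 13.5 and 13.3 CPM. In dendritic cells Sqle, Hmgcs1 and Idi1 of 8 were past the fold higher, at 13.4 and 22.7 CPM, 27.4 and 49.0 CPM and 43.4 and 65.6 CPM, where 8.84% of all genes were. The DC labels differed in this. In pDCs none of the 8 was past the fold, where 7.54% of all genes were higher and 3.72% lower. In cDC 1, 4 of 7 were past it higher, Insig1, Hmgcs1 and Idi1 among them, where 5.89% of all genes were. In cDC 2, 2 of 8 were, Sqle and Hmgcs1, where 8.61% of all genes were. Insig2 was lower past the fold in both cDC 1 and cDC 2, with ratios of 0.601 and 0.581. Of all genes, 4.97% and 5.88% were past it lower in these labels. Hmgcs1 and Idi1 encode early steps of cholesterol synthesis, and Sqle the step that makes squalene epoxide.

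The genes whose levels were most like each member were ranked by Pearson's r of log2(CPM + 1) over 41 points, each a label in 1 library where it held at least 50 cells, among 8992 genes. The points share libraries and cell lineages, so r is a description. The 3 genes most like Nr1h3 included Cmklr1 (0.88) and Ctsc (0.87). Npc2 was most like Sdc3 (0.89), Vwa5a (0.88) and Anxa4 (0.88). Plin2 was most like Cstb (0.89), Wdfy3 (0.88) and the ferritin gene Ftl1 (0.88). Pltp was nearest to Slamf9 (0.87), Rab14 (0.87) and Lifr (0.87). Lpl was nearest to Cbr2 (0.86), the fibronectin gene Fn1 (0.85) and the lipid receptor gene Trem2 (0.85). The 3 genes nearest to Npc1 included Cox6a2 (0.82) and the cholesterol ester hydrolase gene Nceh1 (0.77). The 3 nearest to Abca1 included Rhob (0.77) and Zfp703 (0.77). Those of Abcg1 were Abi1 (0.83), Il10rb (0.81) and Il4ra (0.79), those of Mylip Ddit3 (0.76), Hbp1 (0.73) and Ctnnb1 (0.71), and those of Cd36 Lyz1 (0.71), Mtmr10 (0.70) and Mospd2 (0.67). With labels of at least 100 cells, 34 points, 11 of the 30 genes stayed in the top 3.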

How the data were processed

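Single-cell libraries of CD45+ DAPI− leukocytes, 1 per genotype, were made with 10x 3′ v3 chemistry, per the labels' protocols. The authors' deposited files hold unscaled UMI counts, made with Cell Ranger 3.0.1 per the file headers, on mm10 per the submitters' processing notes. Per annotated cell, a deposited table lists library, label, UMI total and percent mitochondrial UMIs. The submitters' processing notes name Seurat 3.0.2. Naming of cells, strand handling and doublet removal are not stated there. The table's UMI totals differ from the matrix sums by at most 0.890%.

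Counts were summed per label or class and library over annotated cells, 38959426 UMIs in APOE2 and 36046103 in APOE4, and scaled to CPM. Intervals of ratios are exact conditional binomial, and those of shares exact Clopper-Pearson, at 95%. They cover counting error only. Sums for ratios needed 20 UMIs over both libraries and 20 cells in each, and background genes 50 UMIs. Thinning drew 1500 UMIs per cell (seed 0), leaving out 348 shallower cells in APOE2 and 340 in APOE4. The ratio script was tested on simulated data. The symbol Apoc2 belongs to more than 1 ID and the first was used. Ratios were recomputed with equal label weight, the APOE2 label mix, thinned cells, cells under 5% mitochondrial UMIs, the 5% of cells with the highest doublet score left out, median-ratio size factors, other UMI minimums and a fold of 2. Leaving out the skin resident label was added after seeing the data.

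The text names the 10 members, for each member the 3 genes with the highest r (a few genes that these rules choose are not reported here), and per pathway list the 2 highest and 2 lowest ratios among genes holding 100 or more UMIs there, in monocytes and macrophages. Other genes called in a list, and single labels picked out, were chosen after their values were seen. The members and lists were chosen with earlier results of these data known. Python 3.11.15 was used with numpy 2.4.6, scipy 1.17.1, pandas 2.3.3 and scanpy 1.11.5.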

Additional observations from a re-analysis of the deposited data

Results flagged for a closer look

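Barcodes outside the authors' annotation carried UMIs of the 10 genes, in data that enter no comparison above. In the APOE2 library 398 such barcodes held 4685 of these UMIs, 2084 CPM of their total against 1971 CPM in annotated cells. In the APOE4 library 304 held 1742, or 1337 CPM against 1934 CPM.

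In 4 genes, a pair of labels with at least 100 cells in each library lay on opposite sides of 1, with intervals that did not include it. The share of all genes with such a pair was not computed, so this count is only a description. The intervals cover counting error only. Abcg1 had a ratio of 1.73 in M-MDSC 1 and 0.724 in Monocytic DCs. Plin2 had a ratio of 1.26 in cDC 2 and 0.457 in CD8+ T cells. Npc1 had a ratio of 2.48 in migratory DCs and 0.723 in Mø cluster 1. Npc2 had a ratio of 1.65 in Monocytes 1 and 0.885 in Monocytic DCs. With 1 library per genotype the difference between the labels of a pair was not tested.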

How the results depend on the processing

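The direction of the class log2 ratio held under all 7 alternatives for 8 of the 10 members in monocytes and macrophages, from −1.19 to −0.72 for Abca1 and from 0.36 to 0.63 for Npc2. Cd36 changed sign at the APOE2 label mix, to 0.026 from −0.62, and Mylip, close to 0, lay between −0.13 and 0.13. In the DC class, Npc1 changed sign at the APOE2 label mix, to −0.15 from 0.67, and Pltp, at 0.46, was −1.64 with equal label weight, −0.54 at that mix and −0.17 in cells under 5% mitochondrial UMIs. Of the 38 class ratios of members, 12 changed sign under at least 1 alternative, the cause of which was not tested. They include Abcg1, Mylip and Plin2 in DCs and Abcg1, Npc1 and Npc2 in MDSC labels.

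The number of members past the fold higher in monocytes and macrophages was 0 as reported, 1 at the APOE2 label mix, 2 with cells under 5% mitochondrial UMIs, 1 with size factors and 1 without the skin resident label. The number lower was 4 as reported, 3 in thinned cells and 3 with size factors. It was 2 with equal label weight, 2 at the APOE2 label mix and 2 at a fold of 2. With genes of at least 1 UMI the background was 13.6% higher and 26.2% lower in this class, 17.8% and 18.0% in DCs. Size factors moved the higher share of genes past the fold from 62.2% to 49.9% in DCs and from 66.8% to 49.2% in NK cells. They moved it from 67.6% to 52.8% in M-MDSC 1.

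No paired analysis was possible because each genotype has 1 library, and leaving out a replicate has no value for the same reason. Nr1h3, Cd36 and Lpl had under 20 UMIs in most labels outside monocytes and macrophages, which limits them to levels there.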
